A study of Mus musculus with 4 samples.

Results

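The enzymes and transporters with which absorptive enterocytes complete digestion and take up sugars and peptides were followed as 10 genes: the disaccharidases Lct, Sis, Mgam and Treh, the hydrolases Alpi and Anpep, the sugar transporters Slc5a1, Slc2a2 and Slc2a5, and the peptide transporter Slc15a1. They were chosen by name, as 10 of the 32286 features counted in each library, and not by their values. All 10 were detected, with 1040226 unique molecular identifiers (UMIs, each standing for 1 captured RNA molecule) over all barcodes of the 4 mice.

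The apical face of the enterocyte carries a brush border of microvilli. Its membrane holds enzymes that split disaccharides, starch fragments and peptides, beside transporters that carry the products into the cell. Enterocytes are born in the crypt, move up the villus and are shed at its tip, and their gene expression changes on the way, so a brush border gene can mark a position as well as a cell type. Brush border activity is known to be sensitive to loss of blood flow, which strikes the villus tip first.

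Single cells of the distal jejunum were sequenced 18.5 h after small intestinal ischemia and reperfusion (I/R), in which the superior mesenteric artery of adult male mice was clamped and released. The 2 Control mice were Foxc1fl/fl;Foxc2fl/fl, and the 2 EC-Foxc-DKO mice carried in addition Cdh5-CreERT2, a tamoxifen-inducible recombinase driven in endothelial cells, so the enterocytes of both groups carried the same floxed alleles. Both transcription factor genes were thus targeted in vessels, not in the epithelium. Per the paper, the mice were given tamoxifen by oral gavage on consecutive days before the surgery. Each mouse gave 1 library, every mouse had been operated, and no unoperated mouse was among the 4 libraries.

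Of 22679 barcodes, 5615 (24.8%) had at most 10% of their UMIs from mitochondrial genes and were kept: 1446 and 348 for Control and 2742 and 1079 for EC-Foxc-DKO, replicate 1 first in each pair, an order kept below. Library totals were 15557181 to 72046346 UMIs, and 2 kept barcodes occurred in 2 libraries. Cells were clustered with the 10 genes left out, and clusters received "-like" names from fixed markers, so the zones described here do not rest on the 10 genes. Bottom-like enterocytes numbered 188 and 28 for Control and 121 and 353 for EC-Foxc-DKO, Middle-like enterocytes 347, 21, 227 and 8, and Top-like enterocytes 222, 3, 100 and 2. EC-Foxc-DKO replicate 2 therefore stood apart, with 353 of its 363 enterocyte-like cells in the Bottom-like cluster. Zone values below are given for mice with at least 10 cells of the zone.

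The 10 genes were highest in enterocyte-like clusters and in 1 cluster that was given no name. Levels are given as CPM: each gene's UMIs are divided by the total of the summed cells of a class and scaled to a total of 1e+06, and since the 3′ libraries count 1 end per molecule, CPM needs no correction for gene length. The 10 genes together reached 10445, 9618 and 11552 CPM in the Middle-like cells of Control replicates 1 and 2 and EC-Foxc-DKO replicate 1. In Bottom-like cells they summed to 6934 and 7967 CPM for Control and to 7874 and 9074 CPM for EC-Foxc-DKO, below all 3 Middle-like values. The Top-like cells held 3770 CPM (Control replicate 1) and 4763 CPM (EC-Foxc-DKO replicate 1). Pooled enterocyte-like cells held 88.5% of the UMIs of the 10 genes in kept cells. Alpi had the lowest share there, 70.3%, and Anpep the highest, 93.0%. The unnamed cluster, led by Ptgr1 and Gm42418, had 103, 17, 59 and 7 cells and was not among the pooled cells. The 10 genes summed to 5893, 1705 and 8988 CPM in the 3 mice with at least 10 of its cells, above the Top-like level in the replicate 1 mice of both groups. Its cells had few UMIs, with medians of 883, 3089 and 1115 in these mice.

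In follicular B-like cells, which should lack the proteins, the level was far lower but not 0. They held a sum of 310 and 126 CPM for Control and 180 and 78.6 CPM for EC-Foxc-DKO, which is the level below which a value was read as background. Some other non-epithelial classes held more. In a macrophage-like cluster led by Hebp1 and Aif1 the sum was 714 and 3478 CPM in the replicate 1 mice of Control and EC-Foxc-DKO. In a cluster led by Apod and Sostdc1 it was 1674 CPM in EC-Foxc-DKO replicate 1 and 84.2 to 110 CPM in the other mice. The source of these UMIs was not tested. Crypt-like cells, marked by Olfm4, held 1593, 299, 758 and 874 CPM, above the B-like and below the Bottom-like value of the same mouse. The 299 CPM of Control replicate 2 lay inside the B-like range over all mice. On the log2 scale the sum was 3.40 ± 1.07 (SD, n = 4) higher in Bottom-like than in crypt-like cells.

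**Figure D1:**
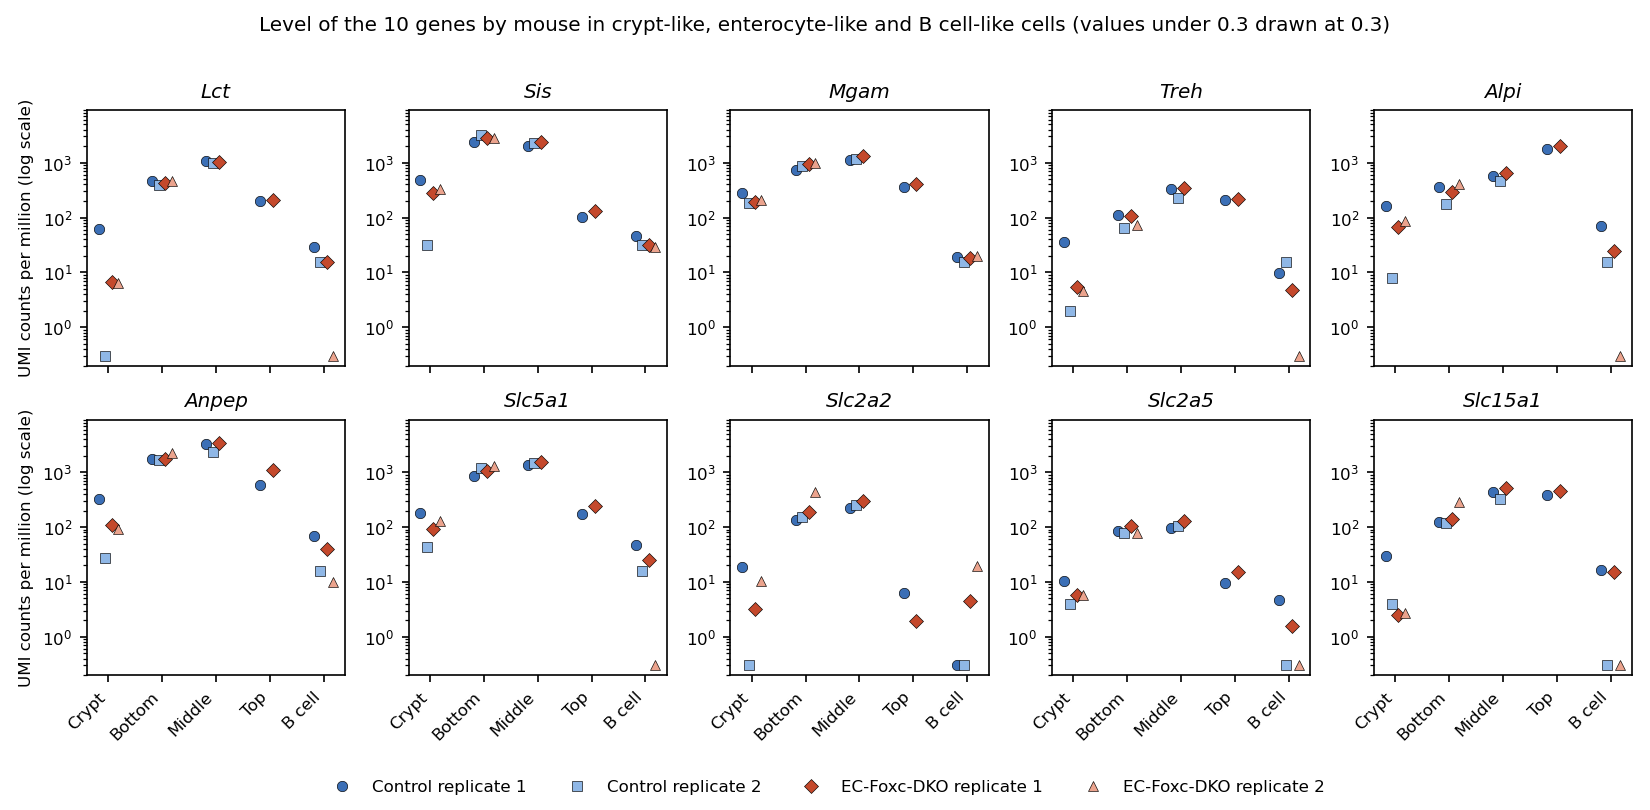
Level of each of the 10 genes (CPM, log scale) in crypt-like, Bottom-, Middle- and Top-like enterocytes and follicular B-like cells, 1 point per mouse with at least 10 cells of the class. Sis and Slc2a2 fell steeply from Middle to Top, while Alpi was higher in each successive zone.

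The disaccharidases did not share a single course along the villus. Sis, sucrase-isomaltase, which splits sucrose and the branch points of starch, lies on chromosome 3 (72888557 to 72967863, minus strand, GRCm38). Its level in Bottom-like cells was 2352 and 3223 CPM for Control and 2826 and 2761 CPM for EC-Foxc-DKO, and in Middle-like cells 2051, 2307 and 2355 CPM. These 2 zones touched in range, although within each of the 3 mice the Middle-like value was the lower one, by a mean log2 difference of -0.31 ± 0.15 (SD, n = 3). In Top-like cells Sis was at 104 and 133 CPM in the replicate 1 mice of Control and EC-Foxc-DKO, a Top minus Bottom log2 difference of -4.46 ± 0.06 (SD, n = 2). Both Top-like values were still above every B-like value of Sis, 29.5 to 45.3 CPM. They were below the 201 and 339 CPM of the Hebp1- and Aif1-led macrophage-like cluster in the same mice.

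Lct, lactase, the enzyme of milk sugar digestion (chromosome 1, 128284756 to 128328318, minus strand), had its highest level in the middle instead. Bottom-like cells held 462, 395, 430 and 460 CPM in the order of mice above, Middle-like cells 1052, 979 and 1013 CPM, and Top-like cells 197 and 208 CPM. None of these zones overlapped another. Middle exceeded Bottom by 1.24 ± 0.06 (log2, SD, n = 3), and Top was below Bottom by a log2 difference of -1.14 ± 0.13 (SD, n = 2).

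Mgam, maltase-glucoamylase, which releases glucose from starch fragments (chromosome 6, 40628831 to 40769123, plus strand), was flatter. It ran from 719, 885, 944 and 1000 CPM in Bottom-like cells to 1114, 1156 and 1341 CPM in Middle-like cells, and then to 359 and 412 CPM in Top-like cells. Treh, trehalase, which splits trehalose (chromosome 9, 44673233 to 44686305, plus strand), was at 113, 64.4, 107 and 74.5 CPM in Bottom-like cells. Its Middle-like values were 325, 228 and 342 CPM and its Top-like values 209 and 217 CPM, so that, unlike the other disaccharidases, it was higher in Top-like than in Bottom-like cells.

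Alpi, intestinal alkaline phosphatase, which removes phosphate from lipids and bacterial lipopolysaccharide (chromosome 1, 87098002 to 87101606, minus strand), had the opposite course to Sis. Bottom-like cells held 356 and 178 CPM for Control and 292 and 405 CPM for EC-Foxc-DKO. Middle-like cells held 577, 464 and 644 CPM and Top-like cells 1753 and 1980 CPM. The 3 zones did not overlap, and Top exceeded Bottom by 2.53 ± 0.33 (log2, SD, n = 2).

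Anpep, aminopeptidase N, which trims peptides from their amino end (chromosome 7, 79821803 to 79861059, minus strand), was the most abundant of the 10 genes in Middle-like cells, at 3224, 2351 and 3370 CPM. Bottom-like cells held 1730, 1691, 1774 and 2243 CPM, and Top-like cells 577 and 1087 CPM. Middle and Bottom did not overlap, and the 2 mice with Top-like cells differed in Anpep more than in the other genes with over 100 CPM there.

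All 3 sugar transporters were lower in Top-like than in Bottom-like cells. Slc5a1, the sodium-coupled glucose and galactose carrier SGLT1 of the apical membrane (chromosome 5, 33104219 to 33162870, plus strand), was at 856, 1182, 1064 and 1322 CPM in Bottom-like cells and at 1340, 1449 and 1541 CPM in Middle-like cells. Top-like cells held 170 and 247 CPM, a Top minus Bottom log2 difference of -2.22 ± 0.16 (SD, n = 2). Slc2a5, the fructose carrier GLUT5 (chromosome 4, 150119283 to 150144169, plus strand), had the fewest UMIs of the 10 genes, with 84.3, 76.6, 106 and 79.5 CPM in Bottom-like, 94.6, 103 and 131 CPM in Middle-like and 9.72 and 14.96 CPM in Top-like cells. Bottom and Middle overlapped in Slc2a5, and both Top-like values were below all of them.

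Slc2a2, GLUT2, the facilitative carrier through which glucose and fructose leave the enterocyte at its base (chromosome 3, 28697903 to 28731359, plus strand), was at 134 and 154 CPM in Bottom-like cells for Control and at 188 and 443 CPM for EC-Foxc-DKO. Middle-like cells held 225, 251 and 302 CPM. In Top-like cells Slc2a2 was at 6.27 and 1.95 CPM, inside the range of 0 to 19.7 CPM in B-like cells and hence not distinguishable from background. Of 222 Top-like cells of Control replicate 1, 10 had an Slc2a2 UMI (4.50%, 95% exact binomial interval 2.18 to 8.13%), against 154 of 188 Bottom-like cells (81.9%, 75.7 to 87.1%) and 0 of 123 B-like cells, which allows up to 2.44%. These cells had medians of 12408, 39167 and 3285 UMIs. After thinning every cell to 1000 UMIs, the shares were 0.349% in Top-like, 12.0% in Bottom-like and 0% in B-like cells. Intervals and limits here cover counting error alone.

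Slc15a1, the proton-coupled carrier of di- and tripeptides PEPT1 (chromosome 14, 121459621 to 121505252, minus strand), was higher in Top-like than in Bottom-like cells. It was at 126 and 118 CPM in Bottom-like cells for Control and at 143 and 286 CPM for EC-Foxc-DKO, at 442, 331 and 514 CPM in Middle-like cells and at 385 and 463 CPM in Top-like cells. Middle and Top overlapped, and both were above every Bottom-like value. Within both mice with Top-like cells the Top-like value was below the Middle-like one. The Top minus Bottom log2 difference was 1.65 ± 0.06 (SD, n = 2).

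Taken by direction, 7 of the 10 genes were lower in Top-like than in Bottom-like cells in both mice with Top-like cells, and Treh, Alpi and Slc15a1 were higher in both. The summed difference was -0.80 ± 0.11 (log2, SD, n = 2). Since zones are clusters of the same cells, none of these differences was tested. Alpi has close paralogs, Akp3 among them, and a split of its reads between them was not tested. When barcodes with up to 20% mitochondrial UMIs were kept and clustered again, 9 of the 10 directions were the same, and Treh alone turned, to -0.63 ± 0.66 (SD, n = 3). The Middle minus Bottom difference of the sum, 0.47 ± 0.17 (log2, SD, n = 3), became -0.20 ± 1.27 (SD, n = 4) in that setting, where EC-Foxc-DKO replicate 2, with 13 Middle-like cells, was at -2.10 and the other mice at 0.51, 0.26 and 0.52.

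Sis and Alpi differed most in opposite directions among the genes above the B-like range in Top-like cells, and Lct had its peak in the middle. These 3 genes are shown by the 250 bases before their transcription start, read from RefSeq (GRCm38.p6) on the coding strand. All 10 genes had such a sequence. Capitals mark matches on either strand to the half-site GTTAAT of the HNF1 factors, the CDX site TTTATG and the half-site CAAAGT of the HNF4 factors, 3 families of transcription factors known from enterocytes. The Sis stretch is chr3:72967864-72968113, that of Alpi chr1:87101607-87101856 and that of Lct chr1:128328319-128328568, all on the minus strand.
Sis: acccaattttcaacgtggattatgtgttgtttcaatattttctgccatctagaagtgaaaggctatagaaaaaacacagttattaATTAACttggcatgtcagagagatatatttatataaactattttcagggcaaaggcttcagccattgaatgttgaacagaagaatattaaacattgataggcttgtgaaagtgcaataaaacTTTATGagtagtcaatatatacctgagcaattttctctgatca
Alpi: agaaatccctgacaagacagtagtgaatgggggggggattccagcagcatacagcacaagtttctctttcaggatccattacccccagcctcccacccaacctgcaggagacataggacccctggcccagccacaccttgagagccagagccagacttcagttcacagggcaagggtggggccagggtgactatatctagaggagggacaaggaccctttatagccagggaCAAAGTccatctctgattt
Lct: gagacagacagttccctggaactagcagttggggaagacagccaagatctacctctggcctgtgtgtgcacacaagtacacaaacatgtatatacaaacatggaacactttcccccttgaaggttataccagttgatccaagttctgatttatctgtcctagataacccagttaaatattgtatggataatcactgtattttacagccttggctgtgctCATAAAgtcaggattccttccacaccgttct

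Sis held an HNF1 half-site 165 bases and a CDX site 43 bases before the start, and Lct a CDX site 31 bases before it. Alpi held the HNF4 half-site 19 bases before the start, as did Slc15a1 at 31 bases, Slc2a2 at 250 bases and Treh at 227 and 68 bases. Mgam, Anpep, Slc5a1 and Slc2a5 held none of the 3 words in this window. The Anpep window, chr7:79848211-79848460, lies inside the gene span given above, before an internal RefSeq start. That of Slc2a5, chr4:150119094-150119343, runs past the gene start given above. Only 1 start per gene was searched. Of 32851 promoters of this length, 6.43% held the HNF1 word, 10.8% the CDX word and 12.6% the HNF4 word. The matches describe letters and not bound sites.

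A finer order was set with a landmark score, the mean log level of 9 villus top landmarks (led by Apoa4 and Ada) minus that of 9 villus bottom landmarks (led by Reg3b and Reg3g). None of them was among the 10 genes, and the genes were not standardized. Enterocyte-like cells were cut at 4 score values into 5 bins of equal size over all mice. The replicate 1 mice of both groups filled every bin with at least 10 cells. EC-Foxc-DKO replicate 2 did so for bins 1 to 4 and Control replicate 2 for bins 1 and 2. Bins 1 and 2 were mostly Bottom-like cells, with 319 and 258 of them, and bin 5 held 309 of the 327 Top-like cells.

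Alpi rose bin by bin in Control replicate 1, from 256 CPM in bin 1 to 297, 443, 884 and 1784 CPM in bin 5. EC-Foxc-DKO replicate 1 ran from 205 to 2026 CPM over the same bins, and EC-Foxc-DKO replicate 2 from 323 CPM in bin 1 to 1000 CPM in bin 4. Alpi was thus highest in the last bin that each of the 4 mice filled.

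Sis stayed level before it fell. In Control replicate 1 it was at 2227, 2573 and 2598 CPM in bins 1 to 3, at 1102 CPM in bin 4 and at 90.7 CPM in bin 5, a range of 28.7-fold. EC-Foxc-DKO replicate 1 reached its highest Sis level in bin 2, 3315 CPM, and its lowest in bin 5, 98.2 CPM, a range of 33.7-fold. In EC-Foxc-DKO replicate 2 the fall came earlier on the score, from 3022 CPM in bin 2 to 1280 CPM in bin 3, where the other 2 mice with enough cells were still at 2598 and 2552 CPM.

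Slc2a2 was highest in bin 3 in the replicate 1 mice of both groups, at 261 and 346 CPM, and lowest in bin 5, at 4.63 and 3.27 CPM. Slc5a1 and Slc2a5 also had their highest level in bin 3 in both mice. Slc15a1 and Treh were highest in bin 4 in both: Slc15a1 reached 542 and 650 CPM there, and Treh 398 and 416 CPM. In bin 5 Slc15a1 was at 377 and 460 CPM and Treh at 207 and 219 CPM. Lct, Mgam and Anpep were highest in bin 4 in Control replicate 1 and in bin 3 in EC-Foxc-DKO replicate 1. The summed level of the 10 genes was highest in bin 3 in both mice, at 10468 and 11382 CPM. EC-Foxc-DKO replicate 2 had earlier peaks over its 4 bins for Sis in bin 1 (3034 CPM), for the sum (10152 CPM), Slc2a2, Slc5a1 and Mgam in bin 2, and for Treh in bin 3. Its Slc2a5 was close to level, at 80.5, 75.7, 79.2 and 86.9 CPM in bins 1 to 4. The last of these values came from 22 UMIs in 13 cells.

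**Figure D2:**
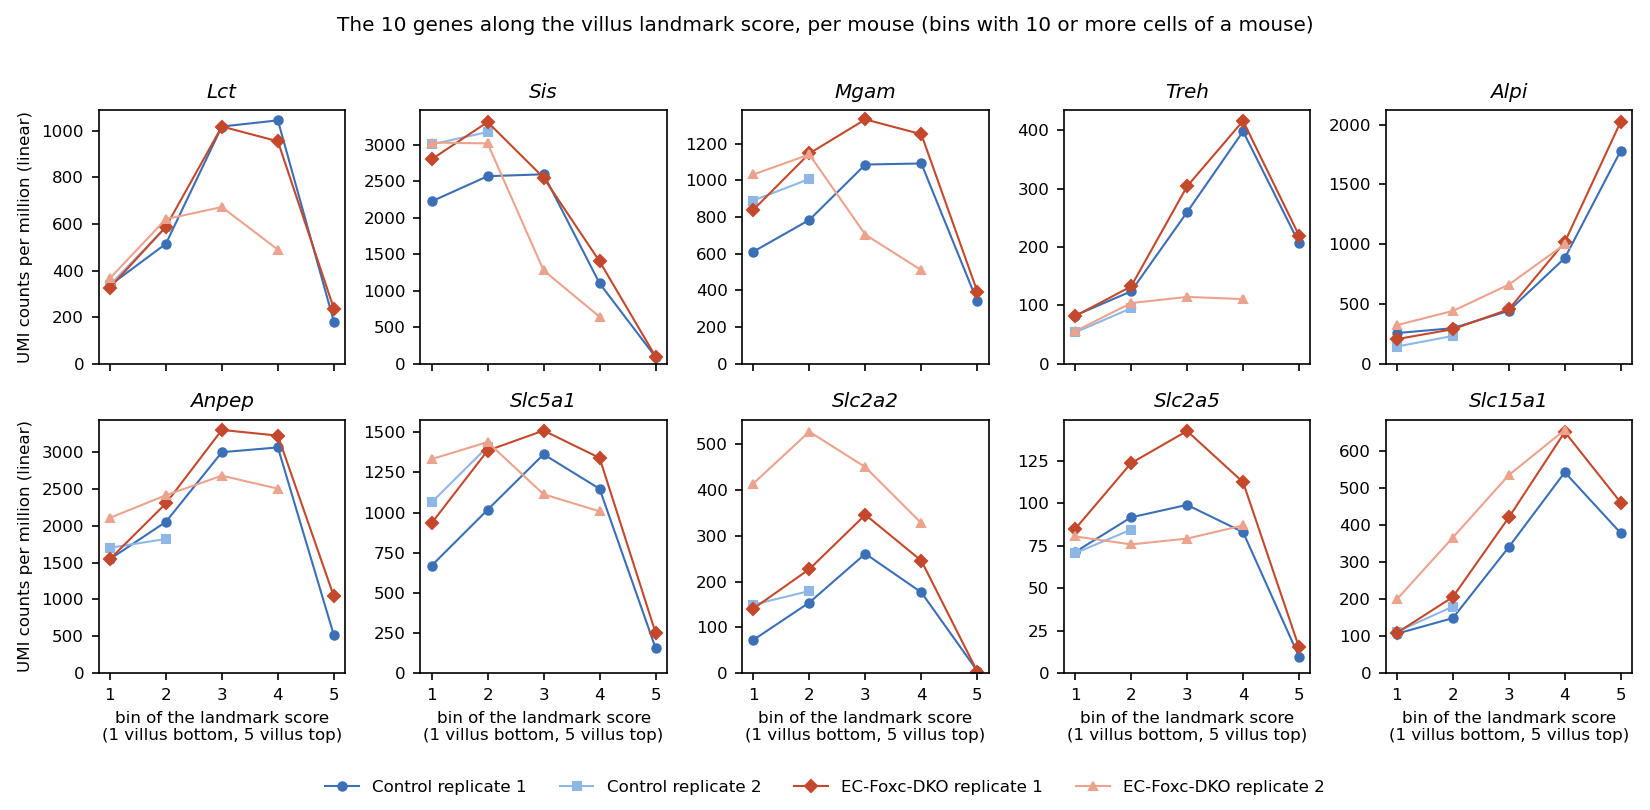
Level of each gene (CPM, linear axis) in 5 bins of the landmark score from villus bottom (1) to villus top (5), 1 line per mouse, for bins with at least 10 cells of that mouse. Alpi alone was highest in bin 5, and Sis, Slc2a2 and Slc2a5 came close to 0 there.

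Across single cells, thinned to 5000 UMIs each, Sis and Alpi stood at opposite ends in each of 3 mice. The correlation of log level with the landmark score was -0.86 for Sis and 0.74 for Alpi over 738 cells of Control replicate 1. It was -0.84 and 0.78 over 435 cells of EC-Foxc-DKO replicate 1, and -0.63 and 0.44 over 358 cells of EC-Foxc-DKO replicate 2, in which 3 cells lay in bin 5. The sign differed between mice for Lct, at -0.43, -0.28 and 0.24, and for Anpep, at -0.60, -0.49 and 0.18, with EC-Foxc-DKO replicate 2 above 0 in both. Sis and Alpi correlated with each other at -0.64, -0.67 and -0.24 in these mice, while Anpep and Slc5a1 correlated at 0.65, 0.63 and 0.30. These points share a library and its composition and are given as a description.

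The Middle-like zone joined 2 clusters that differed in Sis and Alpi, although on the log2 scale the larger part of the Sis fall lay between them and the Top-like cells. The cluster led by Cubn, with 176 and 125 cells in Control replicate 1 and EC-Foxc-DKO replicate 1, held Sis at 2646 and 2783 CPM, and the cluster led by Ubd, with 171 and 102 cells, at 1151 and 1628 CPM. Alpi was at 387 and 418 CPM in the former and at 864 and 1030 CPM in the latter. Lct was close to level between them, with 1047 and 1022 CPM against 1060 and 999 CPM. Slc15a1 was higher in the Ubd-led cluster, at 576 and 698 CPM against 354 and 405 CPM.

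A cluster of 269 epithelial cells had 63 cells in Control replicate 1 and 32 and 172 for EC-Foxc-DKO. Its 10 leading genes began with 2610528A11Rik, Akr1b8 and Dppa3 and included Gml2, Sprr2a3 and Duoxa2. This cluster held Alpi between its Bottom-like and Top-like levels and most of the other genes below their Bottom-like level. Its leading genes do not belong to the enteroendocrine lineage that its best-matching marker list was named for. It is therefore called Sprr2a3-led or Sprr2a3/Gml2-led, after leading genes that are also in the injury list below. Alpi was at 1105, 1107 and 1043 CPM there, above all 4 Bottom-like values, by 1.64 ± 0.28 (log2, SD, n = 3). These were below the Top-like values of 1753 and 1980 CPM. Sis was at 685, 954 and 387 CPM, by a log2 difference of -2.06 ± 0.68 (SD, n = 3) against Bottom-like cells of the same mouse. Anpep showed a log2 difference of -2.61 ± 0.64 and Slc2a2 of -2.18 ± 0.82, both negative in 3 of 3 mice. Slc15a1 had a difference above 0 in 2 of 3 mice, and the other 8 genes were below their Bottom-like level in all 3. Each of these mice still held Sis, Mgam and Slc5a1 here above every B-like value of the same gene. The Hebp1- and Aif1-led macrophage-like cluster came closer in EC-Foxc-DKO replicate 1. It held Mgam at 619 and Slc5a1 at 536 CPM there, against 626 and 433 CPM in the Sprr2a3-led cluster of that mouse. In Control replicate 1 the macrophage-like values were 44.6 and 112 CPM, against 373 and 219 CPM. Genes of an injury list that includes Sprr2a3 and Gml2 summed to 3019, 2781 and 4650 CPM in these cells, against 103, 93.4 and 441 CPM in the Bottom-like cells of the same mice. Since Sprr2a3 and Gml2 are also among the leading genes of the cluster, a high sum there was given in advance and is only a description.

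Other epithelial types held the 10 genes in other proportions. Sis led in enteroendocrine-like cells, the hormone-secreting cells marked by Cck and Pyy, and was at 1610 CPM in Control replicate 1 and at 1844 and 656 CPM in the EC-Foxc-DKO mice. It made up 70.7% (95% exact binomial interval 67.5 to 73.9%), 53.9% (50.5 to 57.2%) and 44.8% (39.9 to 49.7%) of the UMIs of the 10 genes in these cells. In the Bottom-like cells of the same mice that share was 33.9, 35.9 and 30.4%, and in goblet- and Paneth-like cells 21.5, 7.24 and 28.1%. The enteroendocrine-like share was the highest of these classes in each of the 3 mice. Its UMIs came from 25, 24 and 23 cells, and its intervals cover counting error alone, not the spread between cells.

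Mgam had a larger share in crypt-like than in Bottom-like cells, at a low level of 278, 181, 194 and 209 CPM. It was 17.5, 60.4, 25.6 and 23.9% of the UMIs of the 10 genes there, the second value resting on 93 of 154 UMIs of Control replicate 2. In Bottom-like cells it was 10.4, 11.1, 12.0 and 11.02%. In each of the 4 mice the crypt-like share was the higher one. The same order was seen for Alpi, with 9.99, 2.60, 8.75 and 9.73% in crypt-like against 5.14, 2.23, 3.70 and 4.47% in Bottom-like cells. Its crypt-like level was 159, 7.78, 66.3 and 85.0 CPM. Control replicate 2 and EC-Foxc-DKO replicate 1 thus lay inside the B-like range of Alpi, 0 to 69.2 CPM. In B-like cells the Alpi share was 22.3, 12.5, 13.6 and 0%, with 8 UMIs in each replicate 2 mouse. The part of background in the crypt-like share of Alpi was not tested. The 2.60% of Control replicate 2 rested on 4 of 154 UMIs. Its exact binomial interval, 0.71 to 6.52%, enclosed the 2.23%, so the order of Alpi in that mouse is open. The sum of the 10 genes in the crypt-like cells of that mouse also lay inside the B-like range, as given above. Sis had the largest crypt-like share of the 10 genes in 3 of the 4 mice, at 30.7, 36.3 and 37.9%, and 10.4% in Control replicate 2. Slc15a1, in contrast, was at 2.51 to 3.89 CPM in the crypt-like cells of 3 mice and at 29.4 CPM in Control replicate 1.

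**Figure D3:**
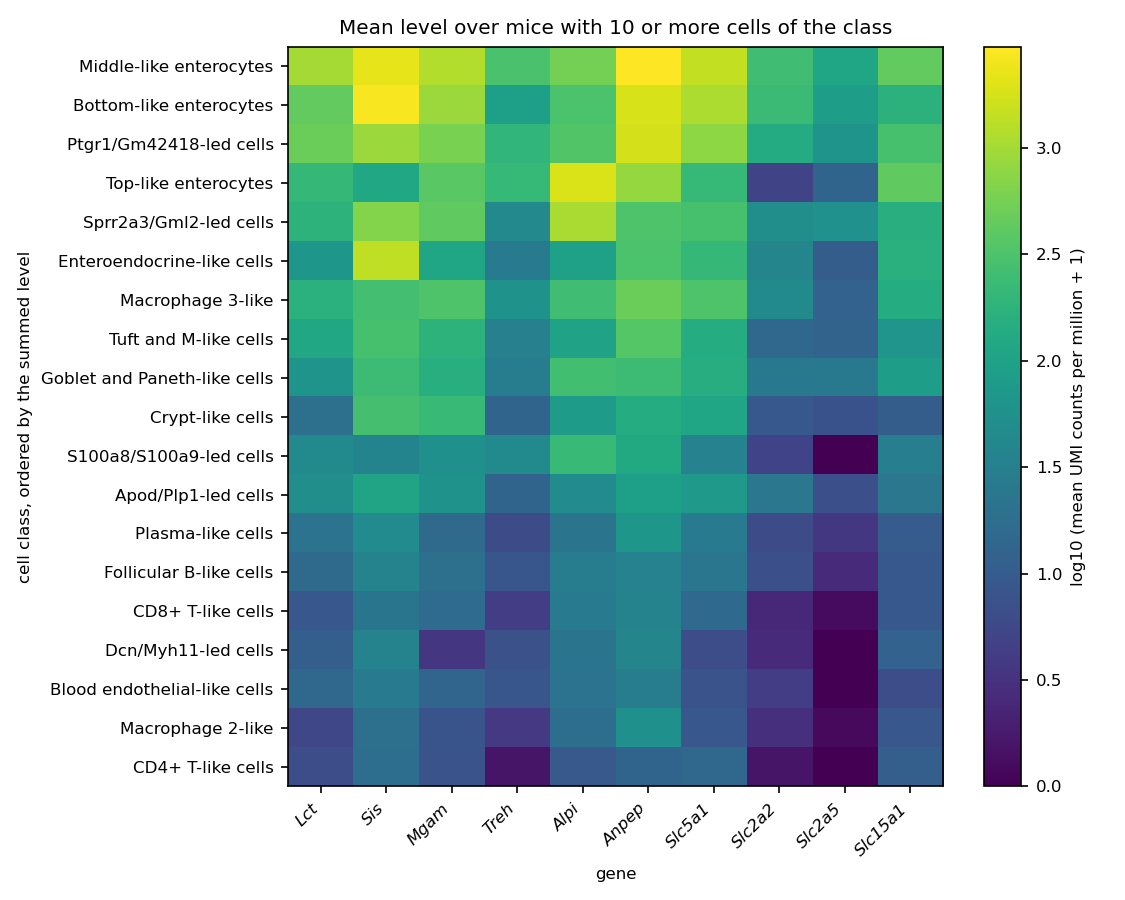
Mean level of each gene (columns) over the mice with at least 10 cells of a class (rows, ordered by the sum of the 10 genes), as log10 of mean CPM plus 1. Middle- and Bottom-like enterocytes lead, followed by the unnamed Ptgr1/Gm42418-led cluster and Top-like enterocytes. Sis is bright in enteroendocrine-like cells, and Alpi in Top-like and Sprr2a3/Gml2-led cells.

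The genes most like each member were sought over 25 sums, 1 per mouse and epithelial class with at least 10 cells, by Pearson's r of log2(CPM + 1) among 7916 genes. These sums share libraries and depth, so r is a description. Slc5a1 was among the 3 nearest genes of Anpep (r = 0.96) and of Sis (r = 0.89), and Slc2a5 was the nearest of Slc2a2 (r = 0.90). Outside the 10 genes, Leap2, a liver-expressed antimicrobial peptide made in enterocytes too, was nearest to Lct (r = 0.99) and second to Slc2a2 (r = 0.89). The uncharacterized 2010106E10Rik was among the nearest of Treh (r = 0.97) and Anpep (r = 0.95). The lowest r between any pair of members was that of Alpi and Slc2a2 (r = 0.49).

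The genotypes were compared next, which asks whether endothelial deletion of both Foxc genes was accompanied by a change of the digestive programme of the epithelium after I/R. UMIs were summed per mouse and tested with edgeR's quasi-likelihood test, 2 mice against 2, with Benjamini-Hochberg adjustment over all genes tested. None of the 10 genes passed an adjusted p of 0.05 in pooled enterocyte-like cells or in Bottom-like cells. The background was 0% of 10276 and 0% of 9658 genes called. At an unadjusted p under 0.05 there was 1 of the 10 genes in pooled cells, Slc2a2, among 150 genes in all, and 2 in Bottom-like cells, Slc2a2 and Slc15a1, among 289. DESeq2 called 2 and 8 genes, none of the 10 among them.

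Slc2a2 had the largest difference. In Bottom-like cells its TMM-scaled level was 133 and 153 CPM for Control and 185 and 463 CPM for EC-Foxc-DKO. Both EC-Foxc-DKO values lay above both Control values, but the distance between the EC-Foxc-DKO mice was larger than that between the groups' nearest values. The log2 difference, EC-Foxc-DKO minus Control, was 1.19 (SE 0.39, adjusted p = 0.999, edgeR), and leaving out EC-Foxc-DKO replicate 2 took it to 0.38. Without EC-Foxc-DKO replicate 1 it was 1.71. With no filter on low genes it was 1.23 and passed the adjusted threshold (adjusted p = 0.000371, edgeR), a setting in which 148 of 15376 genes did.

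Slc15a1 in Bottom-like cells showed the same order, with 125 and 117 CPM against 140 and 299 CPM. Its log2 difference was 0.86 (SE 0.34, adjusted p = 0.999, edgeR), and 0.20 without EC-Foxc-DKO replicate 2. Without EC-Foxc-DKO replicate 1 it was 1.30. With no filter it was 0.90 and passed the adjusted threshold (adjusted p = 0.0428, edgeR), as did 148 of 15376 genes in that setting. EC-Foxc-DKO replicate 2 was the highest of the 4 mice in both genes, and the value of each rests on it.

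The other 8 genes had log2 differences between -0.00 and 0.40 in Bottom-like cells, with SEs of 0.22 to 0.35. Sis was at 2333 and 3194 CPM for Control and 2770 and 2887 CPM for EC-Foxc-DKO, so that the Control mice enclosed the others. Alpi had the largest of these 8 differences, 0.40 (SE 0.35), and its Control values, 353 and 176 CPM, overlapped 286 and 424 CPM. Without EC-Foxc-DKO replicate 1 the difference of Alpi was 0.63. The differences nearest to 0 were those of Treh (-0.00, SE 0.29) and Sis (0.03, SE 0.26).

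In Bottom-like cells 4 of the 10 genes, Mgam, Anpep, Slc2a2 and Slc15a1, had both EC-Foxc-DKO values above both Control values, where 17.3% of all genes tested did and 33% did not overlap in either direction. In pooled cells these were Mgam, Anpep, Slc2a2 and Slc2a5, against 13.9% of all genes tested and 26.9% in either direction. In neither set of cells did any of the 10 have both values below, where 15.8% of all genes tested in Bottom-like and 13% in pooled cells did. The 10 genes share the same 4 libraries, and EC-Foxc-DKO replicate 2 had the highest sum of them in Bottom-like cells, 9074 CPM.

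**Figure D4:**
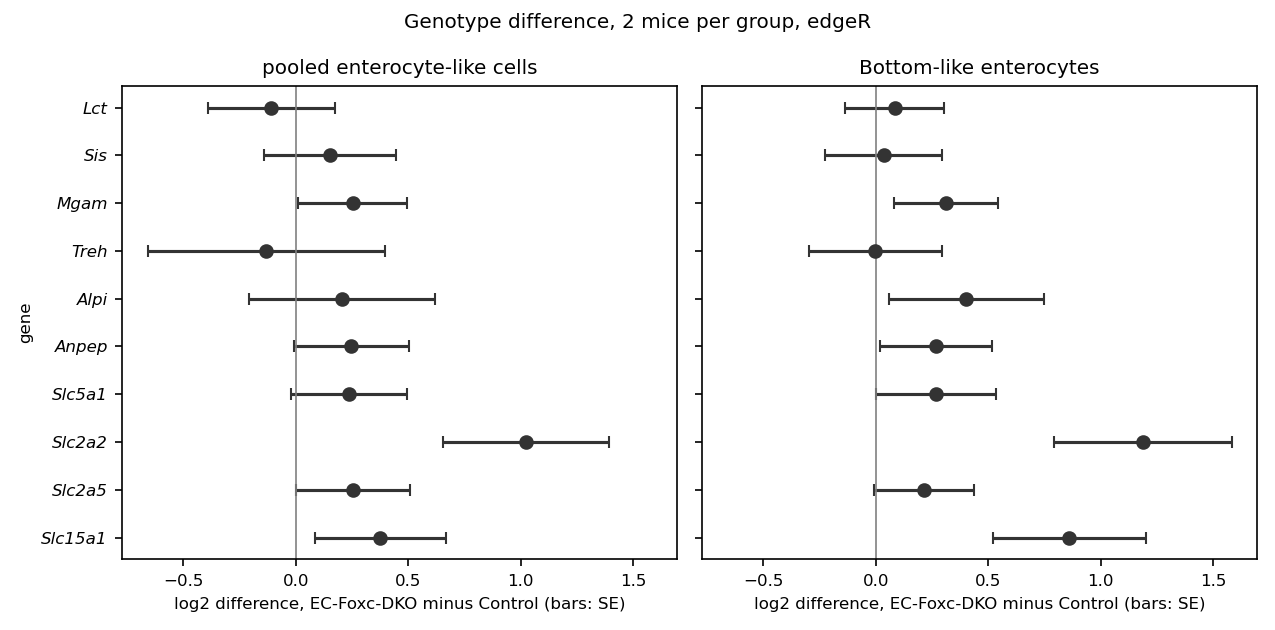
Log2 difference of each gene, EC-Foxc-DKO minus Control, from edgeR with 2 mice per group, in pooled enterocyte-like cells (left) and in Bottom-like enterocytes (right), with bars of 1 SE. Slc2a2 lies farthest from 0 in both panels, at 1.02 and 1.19, and none of the 20 differences passed the adjusted threshold.

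In pooled enterocyte-like cells Slc2a2 had a log2 difference of 1.02 (SE 0.37, adjusted p = 1.00, edgeR), with 157 and 178 CPM for Control and 221 and 459 CPM for EC-Foxc-DKO. Without EC-Foxc-DKO replicate 2 it was 0.41. Lct, at 692 and 568 CPM against 685 and 483 CPM, differed by -0.11 (SE 0.28), and Treh, at 224 and 115 CPM against 234 and 78.1 CPM, by -0.13 (SE 0.53). In both genes the replicate 1 mice were the high ones in each group. Pooled cells differed between mice in their zones, and the part of this in the values was not tested.

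EC-Foxc-DKO replicate 2 differed from the other mice also in the Bottom-like cells themselves. The 9 bottom landmarks summed to 95145 CPM in them, against 39574, 46520 and 48141 CPM in the other mice, and the injury list to 441 CPM, against 103, 17.0 and 93.4 CPM. Most of the landmark sum was Reg3b and Reg3g. Reg3b was at a TMM-scaled 59097 CPM, against 20472, 23652 and 26172 CPM, and Reg3g at 27668 CPM, against 8071, 11354 and 10177 CPM. Of the 9 bottom landmarks, 6 were highest in EC-Foxc-DKO replicate 2, while Plac8, Reg1 and Nlrp6 were lowest in it. B-like cells held 142 to 214 CPM of the injury list, so that only the value of EC-Foxc-DKO replicate 2 exceeded this background. Of the 9 top landmarks, 6 were also highest in EC-Foxc-DKO replicate 2 among the Bottom-like cells. Apoa4 was at a TMM-scaled 4934 and 1888 CPM for Control and 3967 and 7842 CPM for EC-Foxc-DKO. Whether a zone name or a score bin stands for the same villus position in this mouse was not tested. Within bins of the landmark score Slc2a2 was, in bin 1, at 72.5 and 150 CPM for Control and at 141 and 415 CPM for EC-Foxc-DKO, and in bin 2 at 154, 179, 227 and 528 CPM. In both bins EC-Foxc-DKO replicate 2 was the highest, and in bin 1 EC-Foxc-DKO replicate 1 lay between the Control mice. Slc15a1 in bin 1 was at 106 and 111 CPM against 108 and 199 CPM. The part of the landmark and injury genes in these values was not tested.

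Other genes of the enterocyte surface and its supply were counted from fixed lists, and 0 of any list passed the edgeR test in either set of cells. Of 13 other brush border hydrolases tested, 13 had a positive difference in Bottom-like cells, with a median of 0.36 against 0.01 over all genes, and 9 in pooled cells, with a median of 0.12. In Bottom-like cells EC-Foxc-DKO replicate 2 was the highest mouse in 10 of the 13, and EC-Foxc-DKO replicate 1 was below both Control mice in 2 of them. The share of all genes tested for which this held is not given, so these counts are not read as particular to the list. Among them Mep1b, a subunit of the metalloprotease meprin, differed by 0.21 (SE 0.24) in Bottom-like cells. Of 15 other sugar and amino acid transporters, 12 were positive in Bottom-like cells (median 0.27). Slc6a19, the main carrier of neutral amino acids, was at 183 and 128 CPM against 201 and 559 CPM, again with EC-Foxc-DKO replicate 2 highest, and Slc43a2 differed by 0.60 (SE 0.23).

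In the other lists, of 14 microvillus scaffold genes 11 were positive in Bottom-like cells (median 0.17), with Vil1, which bundles actin in the microvillus core, at 0.10 (SE 0.24) and Pls1, another actin bundler, at 0.35 (SE 0.29). Of 8 genes of sugar metabolism 5 were positive (median 0.07), with Khk, which phosphorylates fructose, at -0.08 (SE 0.23). Of 14 enterocyte transcription factors 5 were positive (median -0.09), with Creb3l3 at -0.02 (SE 0.26) and Maf at -0.07 (SE 0.34). Single members lay farther from 0, and those of these 3 lists with an unadjusted p under 0.05 (edgeR) are named here after their values were seen. The scaffold list gene Tmigd1 differed by 2.82 (SE 0.77), at 18.6 and 10.8 CPM against 31.3 and 197 CPM. G6pc of the sugar metabolism list differed by -0.70 (SE 0.26), at 44.0 and 30.1 CPM against 26.0 and 21.8 CPM. The transcription factor genes Klf4 and Elf3 differed by 1.61 (SE 0.57) and -0.75 (SE 0.28). Klf4 was at 89.7 and 42.2 CPM against 91.8 and 331 CPM, so its difference rests on EC-Foxc-DKO replicate 2. Elf3 was at 172 and 136 CPM against 114 and 71.3 CPM. In pooled cells Klf4 differed by 0.16 (SE 0.44) and Elf3 by -0.43 (SE 0.30). Medians of these lists are descriptions beside that of all genes, and no test compared the lists.

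A large part of the RNA of the 10 genes lay in barcodes that the 10% limit removed. Kept barcodes held 41.7 and 24.5% of the UMIs of the 10 genes for Control and 35.4 and 66.0% for EC-Foxc-DKO. Barcodes with 10 to 20% mitochondrial UMIs held another 44.6, 37.5, 46.5 and 24.8%. EC-Foxc-DKO replicate 2 was thus the mouse with the largest part kept.

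Alpi and Sis were spread differently over these barcodes. In CPM of the non-mitochondrial UMIs, Alpi was higher in barcodes with 20 to 40% mitochondrial UMIs than in kept ones in every mouse, at 1250 against 651 and 855 against 114 for Control, and 1599 against 398 and 532 against 419 for EC-Foxc-DKO. Sis was not, at 1396 against 1615, 1034 against 1035, 1034 against 1192 and 514 against 1356. In Control replicate 2 that stratum held 42.5% of all Alpi UMIs and 17.0% of all Sis UMIs. Values in these strata cover every cell type, and the part of zone and of damage in them cannot be told apart.

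**Figure D5:**
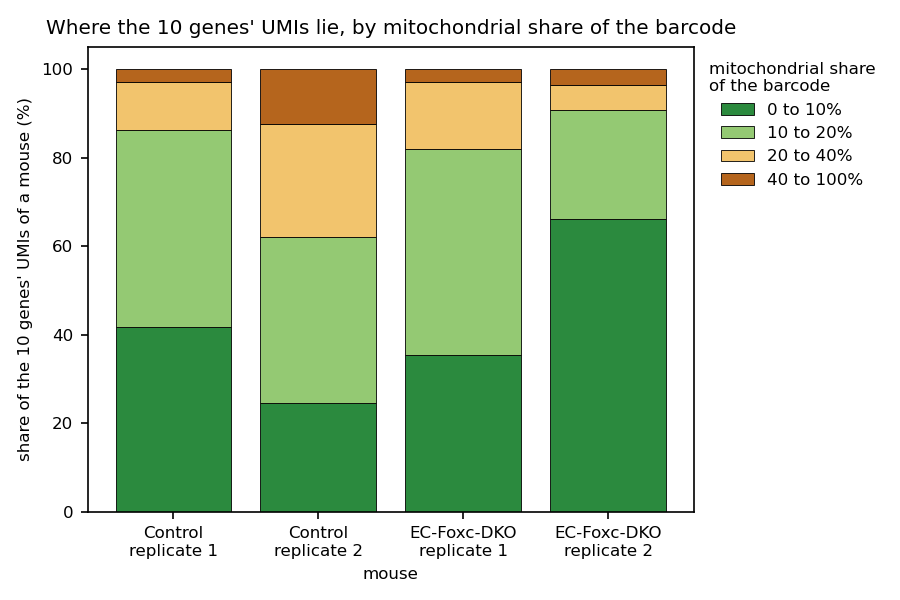
Share of the UMIs of the 10 genes of each mouse (stacked bars, percent) by the mitochondrial share of the barcode they were counted in. Barcodes of up to 10%, the ones kept, held between 24.5 and 66.0%.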

How the data were processed

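Single-cell 3′ libraries (10x Genomics v3.1) of 4 mice were analysed. The authors deposited unnormalized UMI counts per gene and barcode. Per the submitters' processing notes, Cell Ranger 4.0.0 and mm10 were used, and the study's methods name another version. A deposited joined count table of 18407 genes defined the genes over which mitochondrial shares were taken. Barcodes with at most 10% mitochondrial UMIs were kept, as in the study. Cells were clustered with scanpy 1.11.5 and leidenalg 0.10.2 (15 components, 15 neighbors, resolution 0.5), leaving the 10 genes out, and named from markers. Scrublet marked 16 cells (0.285%), too few to have worked, so removal of the 292 highest scores was an alternative. Sums per mouse were tested with edgeR 4.0.16 (quasi-likelihood, TMM, filterByExpr) and, as an alternative, DESeq2 1.42.0. P-values measure the spread between 2 mice per group. On simulated counts for Bottom-like cells (9658 genes), edgeR recovered 87.4% of changes of log2 2 and 18.1% of log2 1. For pooled cells (10276 genes) it recovered 77.1% and 6.19%. These shares hold for the simulated spread only. In the data Tmigd1, at a log2 difference of 2.82 in Bottom-like cells, did not pass the adjusted threshold.

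Groups came from the genotype labels. All 10 genes were named, with up to 2 of the most abundant genes of each other list, of which some are not reported here. Genes, lists and alternatives were chosen with earlier results of these data known.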

Additional observations from a re-analysis of the deposited data

How the results depend on the processing

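The count of genes called between genotypes in pooled enterocyte-like cells, 0, became 2 with DESeq2, 75 with no filter on low genes and 5 with the replicate block, and 0 to 43 when 1 mouse was left out. In Bottom-like cells it was 0, and 8 with DESeq2, 148 with no filter, and 0 to 1124 when 1 mouse was left out, the highest without EC-Foxc-DKO replicate 1. The spread of a group of 1 mouse was then taken from the other group. The labels name no source shared by mice of the same replicate number, and whether such mice shared a day or batch is unknown. Deviations of same-numbered mice correlated at 0.17 in pooled and -0.16 in Bottom-like cells, and the replicate block gave 0 calls in Bottom-like cells. The crossed pairing, added after seeing this, gave 41 calls there.

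Of 220 alternative values of the 20 genotype differences of the 10 genes, 192 kept direction and side of the threshold, 5 passed it and 23 changed sign. Those that passed were all in Bottom-like cells. Slc2a2 and Slc15a1 did so with no filter, where 148 of 15376 genes passed. The rest, Slc2a2, Slc15a1 and Alpi, did so without EC-Foxc-DKO replicate 1, the setting with the most calls over all genes. It leaves 1 mouse in that group, so passing there is not read as a result about these genes. In pooled cells, Lct was 0.10 after removal of doublet scores and -0.38 to 0.13 with 1 mouse left out, Sis -0.10 to 0.45 and Alpi -0.25 to 0.90 with 1 mouse left out, and Treh 0.0085 after removal of doublet scores and -1.14 to 0.45 with 1 mouse left out. In Bottom-like cells, the 20% mitochondrial limit gave Lct -0.12, Sis -0.023 and Slc2a5 -0.0036. Treh was 0.0077 with DESeq2, 0.023 with no filter, 0.0081 at resolution 1, 0.054 after removal of doublet scores and 0.075 with the replicate block. With 1 mouse left out, Lct ran from -0.023 to 0.21, Sis from -0.17 to 0.28 and Treh from -0.31 to 0.52.

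The summed Top minus Bottom difference of -0.80 was -1.64 at the 20% limit and -1.20 after removal of doublet scores, and -0.88 to -0.73 with 1 mouse left out. The Middle minus Bottom difference of the sum turned to -0.20 at the 20% limit, as did those of Mgam (-0.28), Slc5a1 (-0.50), Slc2a2 (-0.31) and Slc2a5 (-0.24). In each of these, 3 mice were above 0 and EC-Foxc-DKO replicate 2, with 13 Middle-like cells, below. Treh, Top minus Bottom, turned to -0.63 there. Clusters were drawn and named anew in these settings, which moves the zones, and the cause was not tested.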
